A study of Homo sapiens with 12 samples.

Results

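Serpins are a superfamily of structurally related proteins, and 33 serpin genes were described here out of 18132 genes read on the arrays. They are the genes whose symbol in the platform annotation begins with SERPIN, read from probe sets that name 1 gene. RNA came from Kelly and BE(2)-C, established human neuroblastoma cell lines, both MYCN-amplified. Each line received 1 µM JQ1 or its vehicle DMSO for 24 h, with 3 arrays in each of the 4 groups. JQ1 displaces BET bromodomain proteins from acetylated chromatin, and the study asked how neuroblastoma cells respond to it. Each line is a single cultured line, so a difference between Kelly and BE(2)-C describes these cultures and not a class of tumour. The labels call the treatments triplicate without naming separate cultures, so the tests measure the spread between these arrays, which may be technical.

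Most serpins are suicide inhibitors. The target protease cuts an exposed loop of the serpin, which springs into the body of the molecule and traps the enzyme in a deformed, inactive complex. Others keep the fold without inhibiting, and act as hormone carriers or as a collagen chaperone. The letter after SERPIN gives the clade: clade A holds mainly secreted plasma proteins, clade B intracellular ones, and clade I the neuroserpin group. In nervous tissue the best studied members are neuroserpin (SERPINI1), which neurons secrete and which inhibits tissue plasminogen activator, and glia-derived nexin (SERPINE2), which inhibits thrombin and plasminogen activators.

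Values are log2 of the deposited RMA intensity. A change of 1 on this scale is a doubling, and "passed" means a limma adjusted p under 0.05, with Benjamini-Hochberg adjustment over all 18132 genes of a comparison. The members by clade were 11 of A, 12 of B, 1 each of C, D, G and H, and 2 each of E, F and I. SERPINA13P and SERPINB9P1, counted among them, are pseudogenes. Most members gave low signal. Of the 33, 30 lay below the median gene (6.68) by their mean over the 12 arrays and 21 below the lower quartile (5.10). SERPIND1, SERPINE2 and SERPINH1 lay above the median. Probe sets differ in how brightly they report, so these places describe signal and do not rank the genes by RNA amount. No filter on low values was applied, and all 33 members were tested.

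The labelled cell type was checked against marker genes. All 11 measured adrenergic neuroblastoma markers lay above the median gene, and their mean per array was 11.4 to 11.7. Of the 11 hepatocyte markers 1 (TF) lay above it, of the 9 keratinocyte markers 1 (SFN), of the 10 fibroblast markers 3 (PDGFRB, FN1 and THY1), of the 4 Schwann cell markers 1 (SOX10), and of the 9 blood and 6 endothelial markers none. HEXIM1, a gene known to rise on BET inhibition, rose in Kelly by 1.43 (adjusted p = 0.000376) and in BE(2)-C by 2.22 (adjusted p = 2.81e-05). Arrays of the same group correlated at 0.952 to 0.996 over all probe sets. The spiked hybridization controls, which are added to the sample before hybridization and carry no cell RNA, differed widely between arrays, from 9.94 to 13.65. For Kelly their mean was 11.90 ± 1.29 (SD, n = 3) under DMSO and 12.94 ± 0.69 under JQ1, and for BE(2)-C it was 11.20 ± 1.54 under DMSO and 11.41 ± 1.2 under JQ1.

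The promoter windows below show the stretch of DNA that bears on the question of neighbours. SERPINI1 lies head to head with PDCD10, a gene of vascular and cell-death signalling on the other strand, and the nearest starts of the pair are 829 bases apart. SERPINI2, the other clade I gene, lies beyond PDCD10 on the same chromosome. Each RefSeq window (GRCh38.p14) runs 5′ to 3′ from 250 bases before to 50 bases after a start. The SERPINI1 window is chr3:167735471-167735770 on the plus strand, that of PDCD10 chr3:167734843-167735142 on the minus strand, that of SERPINI2 chr3:167476914-167477213 on the minus strand, and that of SERPINE2 chr2:224031429-224031728 on the minus strand. The table holds 1 window for SERPINI1 and 2 for each of the other 3 genes. The PDCD10 window shown is the nearer to SERPINI1, and the SERPINE2 window shown is the one with CACGTG. Capitals mark CACGTG, the E-box that MYC proteins bind, and CAGCTG, another E-box.

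SERPINI1: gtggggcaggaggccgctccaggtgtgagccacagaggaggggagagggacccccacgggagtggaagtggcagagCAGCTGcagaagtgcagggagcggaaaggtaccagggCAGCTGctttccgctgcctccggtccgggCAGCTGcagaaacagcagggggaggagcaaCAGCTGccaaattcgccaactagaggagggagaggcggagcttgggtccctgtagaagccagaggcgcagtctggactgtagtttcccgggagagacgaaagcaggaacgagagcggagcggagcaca
PDCD10: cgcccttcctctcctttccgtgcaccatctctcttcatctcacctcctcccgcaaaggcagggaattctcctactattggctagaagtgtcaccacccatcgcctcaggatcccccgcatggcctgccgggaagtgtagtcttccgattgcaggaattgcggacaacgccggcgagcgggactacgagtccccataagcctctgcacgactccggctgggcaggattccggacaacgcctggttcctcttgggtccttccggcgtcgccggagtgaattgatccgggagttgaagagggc
SERPINI2: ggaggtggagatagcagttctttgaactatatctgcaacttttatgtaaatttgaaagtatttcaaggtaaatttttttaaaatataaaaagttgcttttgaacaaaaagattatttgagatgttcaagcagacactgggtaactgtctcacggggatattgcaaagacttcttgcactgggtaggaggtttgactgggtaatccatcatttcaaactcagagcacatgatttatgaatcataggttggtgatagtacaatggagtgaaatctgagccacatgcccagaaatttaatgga
SERPINE2: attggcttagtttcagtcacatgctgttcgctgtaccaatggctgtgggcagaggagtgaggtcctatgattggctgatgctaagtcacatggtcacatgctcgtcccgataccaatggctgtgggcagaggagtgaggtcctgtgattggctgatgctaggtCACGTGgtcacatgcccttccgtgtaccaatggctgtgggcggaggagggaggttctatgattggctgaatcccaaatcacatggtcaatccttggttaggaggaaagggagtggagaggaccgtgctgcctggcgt

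RefSeq windows were found for 25 of the 33 serpin genes, 36 windows in all. Both motifs read the same on either strand and cannot overlap each other. CACGTG occurred in 1 of the 36 serpin windows, the SERPINE2 window printed above, and in 7.26% of all 35116 windows. CAGCTG, searched after the sequences had been seen, occurred in 7 of the 36 windows (19.4%) and in 17.9% of all windows. The SERPINI1 window held 4 copies of CAGCTG, and 4 or more copies occurred in 11 of all windows (0.0313%), that of SERPINI1 included. The cutoff of 4 equals the count in the SERPINI1 window itself, so this share describes that window and is no test. The other SERPINE2 window, chr2:224038591-224038890 on the minus strand, held 2 copies of CAGCTG and was 73.7% G and C. Both windows of PDCD10 and both of SERPINI2 held neither motif. The SERPINI1 window was 64.0% G and C, and the SERPINI2 windows 35.7% (printed) and 31.0%. A match describes letters and is no measurement of binding.

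With JQ1, 4 of the 33 serpin genes (12.1%) passed in Kelly, where 6.5% of all genes did, and 3 (9.09%) passed in BE(2)-C, where 4.69% of all genes did. The gap to the background is a matter of single genes, and no enrichment was tested. In Kelly 2 rose, SERPINE2 and SERPINI1 (1.76% of all genes rose), and 2 fell, SERPINF1 and SERPINH1 (4.73% fell). In BE(2)-C SERPINI1 rose (2.18% of all genes rose), and SERPINF1 and SERPINH1 fell (2.51% fell). SERPINI1 thus rose in both lines, as 0.607% of all genes did, and SERPINF1 and SERPINH1 fell in both, as 1.16% did. Averaged over the lines the same 4 genes passed, 2 higher and 2 lower, against 11.1% of all genes (4.02% higher and 7.04% lower). In a cultured line fewer cells of a kind and less RNA per cell cannot be told apart.

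**Figure D1:**
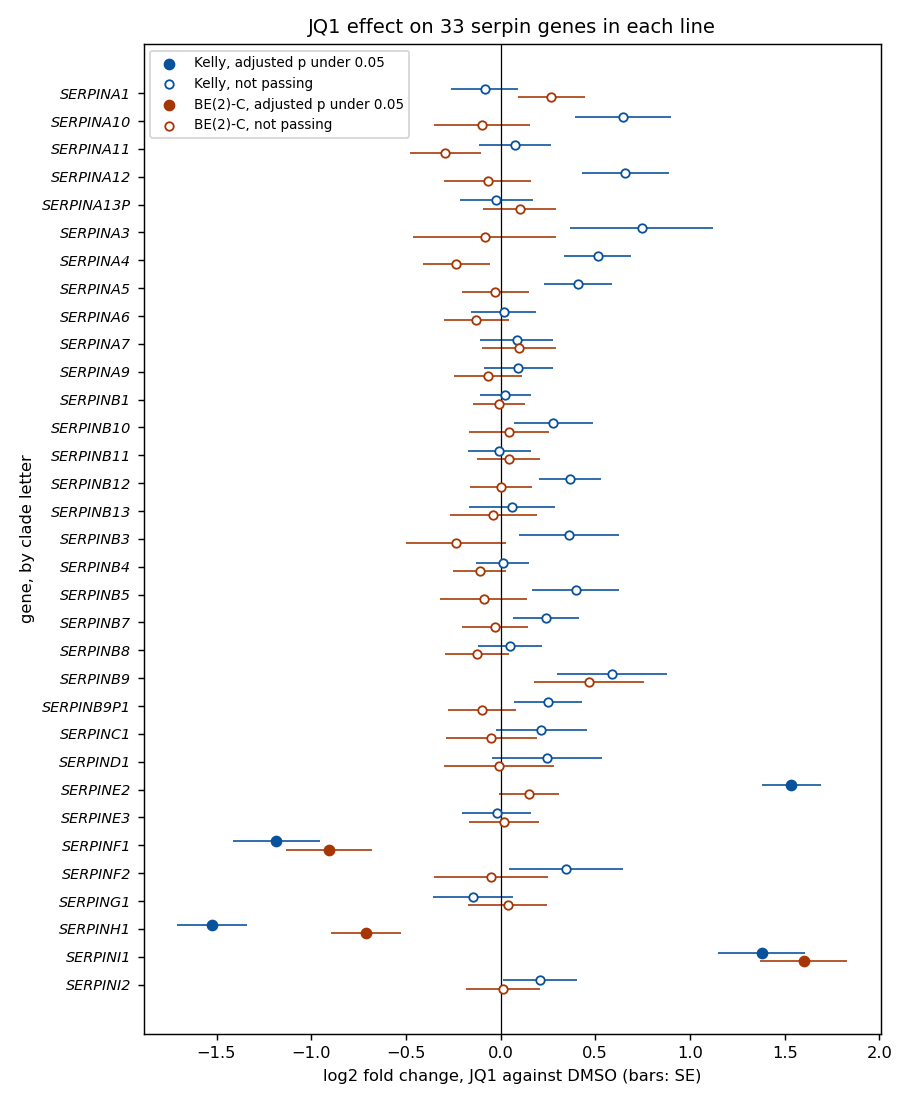
The log2 fold change of JQ1 against DMSO (horizontal axis) is plotted for each of the 33 serpin genes (vertical axis, ordered by clade), in Kelly (blue) and BE(2)-C (brown), with the standard error as a bar and filled points for an adjusted p under 0.05. SERPINI1 stands at 1.38 and 1.60, SERPINF1 and SERPINH1 lie below 0 in both lines, and SERPINE2 has a filled point in Kelly only.

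SERPINI1, neuroserpin, was the serpin gene that rose in both lines. It is read by 1 probe set. The 3 Kelly arrays read 5.24, 5.19 and 5.16 with DMSO and 6.53, 7.06 and 6.12 with JQ1. The BE(2)-C arrays read 4.99, 4.83 and 4.67 with DMSO and 6.57, 6.66 and 6.06 with JQ1. Every JQ1 array lay above every DMSO array. All DMSO arrays were below the median gene (6.68), and so were all JQ1 arrays except Kelly replicate 2 (7.06). The rise was 1.38 (SE 0.23, 2.60-fold, adjusted p = 0.00305) in Kelly and 1.60 (SE 0.23, 3.03-fold, adjusted p = 0.0017) in BE(2)-C. The effects of the lines differed by 0.22 (95% interval -0.48 to 0.93, adjusted p = 0.774). SERPINI1 was singled out because its rise in these data was already known, so these values describe it and are not independent support.

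SERPINI2, the other gene of the clade, encodes a serpin known from the pancreas. Kelly gave 4.28, 4.06 and 4.39 with DMSO and 4.31, 4.22 and 4.81 with JQ1. BE(2)-C gave 4.40, 3.87 and 4.06 with DMSO and 4.08, 4.01 and 4.28 with JQ1. The groups overlapped in both lines, and all 12 values were low. The change was 0.21 (95% interval -0.22 to 0.63, adjusted p = 0.529) in Kelly and 0.01 (-0.41 to 0.43, adjusted p = 1) in BE(2)-C. A low probe set may also respond less than the RNA does, which limits what its interval says about the gene.

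PDCD10, whose start faces that of SERPINI1, gave strong signal on all arrays. Its signal in Kelly was 11.63, 11.47 and 11.97 with DMSO and 11.69, 11.80 and 11.40 with JQ1. Its signal in BE(2)-C was 11.80, 11.52 and 11.68 with DMSO and 12.01, 11.74 and 11.93 with JQ1. The groups overlapped in both lines. The change was -0.06 (95% interval -0.44 to 0.32, adjusted p = 0.852) in Kelly and 0.23 (-0.15 to 0.61, adjusted p = 0.75) in BE(2)-C. Its other 2 probe sets gave -0.21 and -0.67 in Kelly and 0.21 and 0.13 in BE(2)-C, none of which passed.

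The 8 nearest measured genes, 4 on each side, were in chromosomal order ZBBX, SERPINI2, WDR49 and PDCD10 before SERPINI1 and GOLIM4, MECOM, ACTRT3 and MYNN after it. None passed in either line or in the average. Averaged over the lines, their changes ran from -0.26 for MECOM, a transcription factor gene, to 0.11 for SERPINI2, against 1.49 (SE 0.16, adjusted p = 0.000106) for SERPINI1. ZBBX, WDR49 and SERPINI2 gave weak signal (array means 3.89, 3.73 and 4.23), whereas GOLIM4, MYNN and PDCD10 gave strong signal (9.59, 8.91 and 11.72). SERPINI1 exceeded each of the 8 in its average change by 1.38 (SERPINI2) to 1.75 (MECOM). These differences are a description with no test, since SERPINI1 was chosen for its rise. MECOM passed as lower with JQ1 when its 4 probe sets were averaged or the hybridization control signal was fitted. This held in Kelly (lowest adjusted p 0.019) and in the average (0.0039). Its change in Kelly was negative in every alternative, from -0.56 to -0.18.

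**Figure D2:**
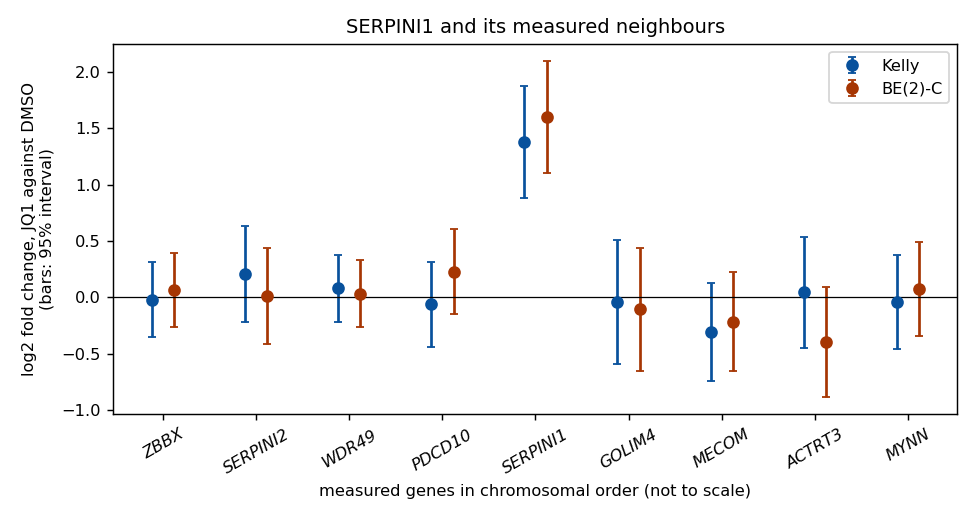
The log2 fold change of JQ1 against DMSO (vertical axis) is plotted with its 95% interval for SERPINI1 and its 8 nearest measured genes in chromosomal order (horizontal axis, not to scale), in Kelly (blue) and BE(2)-C (brown). The intervals of SERPINI1 start at 0.88 and 1.10, and those of the 8 neighbours all include 0.

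The protease that neuroserpin is best known for inhibiting moved the other way. PLAT, tissue plasminogen activator, measured 8.97, 9.03 and 8.74 with DMSO and 7.10, 6.91 and 6.65 with JQ1 in Kelly. The BE(2)-C arrays gave 8.96, 9.35 and 9.17 with DMSO and 8.28, 8.29 and 8.06 with JQ1. The groups did not overlap in either line. PLAT changed by -2.03 (SE 0.17, adjusted p = 2.6e-05) in Kelly and by -0.95 (SE 0.17, adjusted p = 0.00678) in BE(2)-C, and the lines' effects differed by 1.08 (adjusted p = 0.0765). All 7 of its probe sets were negative in both lines, from -2.03 to -0.12 in Kelly and, in BE(2)-C, from -1.06 to -0.13, and 3 of them passed in each line. PLAT was on the list of serpin-inhibited proteases and was named by the rule for lists.

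SERPINE2, glia-derived nexin, belongs to clade E with SERPINE3 among the members. On the Kelly arrays it read 8.81, 8.62 and 9.07 with DMSO and 10.36, 10.44 and 10.31 with JQ1. On the BE(2)-C arrays it read 6.72, 6.44 and 6.36 with DMSO and 6.70, 6.67 and 6.59 with JQ1. The Kelly groups lay more than 1 log2 unit apart, while the BE(2)-C groups overlapped. SERPINE2 rose in Kelly by 1.54 (SE 0.16, 2.90-fold, adjusted p = 0.000115) and gave 0.15 in BE(2)-C (95% interval -0.19 to 0.49, adjusted p = 0.924). The difference of the effects, BE(2)-C minus Kelly, was -1.39 (SE 0.22, adjusted p = 0.0151), and SERPINE2 was the 1 serpin gene to pass that test, which 0.557% of all genes passed (0.441% with the higher effect in BE(2)-C and 0.116% with the higher effect in Kelly).

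The 6 probe sets of SERPINE2 were all positive in Kelly, from 0.68 to 1.55, and in BE(2)-C they gave 0.10 to 0.29. Of the 6, 2 passed in Kelly when all probe sets were tested. Both carry the suffix of sets that may match other transcripts. Without such sets SERPINE2 was read at 1.00 in Kelly (adjusted p = 0.278) and the difference at -0.84 (adjusted p = 0.63), so these calls rest on those sets. With the mean of all 6 sets the difference was -0.88 (adjusted p = 0.141). The other clade E member, SERPINE3, gave -0.02 in Kelly and 0.02 in BE(2)-C and did not pass. The measured genes on either side of SERPINE2, MRPL44 and FAM124B, gave -0.92 (adjusted p = 0.0799) and 0.10 (adjusted p = 0.717) in Kelly. The difference of the effects also missed the threshold without any 1 BE(2)-C JQ1 array, and in Kelly without replicate 1 under DMSO or replicate 2 under JQ1 (adjusted p from 0.0529 to 0.0622).

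SERPINF1 encodes pigment epithelium-derived factor, a secreted protein with neurotrophic and anti-angiogenic activity that does not inhibit proteases. Kelly cells gave 6.65, 6.81 and 5.94 with DMSO and 5.02, 5.14 and 5.68 with JQ1. BE(2)-C cells gave 5.68, 5.53 and 5.59 with DMSO and 4.58, 4.78 and 4.72 with JQ1. The groups did not overlap in either line, and in Kelly the replicate 3 arrays lay closest together (5.94 and 5.68). SERPINF1 changed by -1.18 (SE 0.23, adjusted p = 0.00757) in Kelly and by -0.91 (SE 0.23, adjusted p = 0.042) in BE(2)-C. All 5 probe sets were negative in both lines, from -1.46 to -1.17 in Kelly, where 4 passed, and from -0.91 to -0.43 in BE(2)-C, where none passed when all probe sets were tested. The BE(2)-C call was lost in 11 of 20 alternatives, with adjusted p from 0.00121 to 0.352 over the 20. Among these, it was lost without any 1 BE(2)-C array, and in Kelly without replicate 1 under DMSO or replicate 2 under JQ1 (0.0599 to 0.173). Its clade partner and neighbour SERPINF2, the plasmin inhibitor alpha-2-antiplasmin, gave 0.34 (adjusted p = 0.499) in Kelly and -0.05 (adjusted p = 1) in BE(2)-C.

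SERPINH1 encodes the collagen-specific chaperone of the endoplasmic reticulum, also a serpin without inhibitory activity. The Kelly values were 8.13, 7.88 and 7.75 with DMSO and 6.30, 6.66 and 6.23 with JQ1. The BE(2)-C values were 8.13, 8.55 and 8.49 with DMSO and 7.46, 7.81 and 7.77 with JQ1. The groups were apart in both lines, by more than 1 log2 unit in Kelly. SERPINH1 changed by -1.52 (SE 0.18, adjusted p = 0.000388) in Kelly and by -0.71 (SE 0.18, adjusted p = 0.047) in BE(2)-C. The lines' effects differed by 0.81 (95% interval 0.25 to 1.38, adjusted p = 0.266). The BE(2)-C call was lost in 10 of 20 alternatives, with adjusted p from 0.00583 to 0.229. Among these were the omission of any 1 BE(2)-C JQ1 array, of replicates 2 and 3 of BE(2)-C under DMSO, and in Kelly of replicate 1 under JQ1 and replicates 1 and 2 under DMSO, each in turn (0.0597 to 0.229). Of its 3 probe sets, all of the kind that may match other transcripts, the bright pair gave -1.52 and -1.46 in Kelly and the dimmest -0.22. In BE(2)-C the 3 ran from -0.71 to -0.34, and none passed when all probe sets were tested. Its measured neighbours GDPD5 and MAP6 gave 0.23 and 0.19 in Kelly and 0.47 and 0.59 in BE(2)-C, and did not pass.

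**Figure D3:**
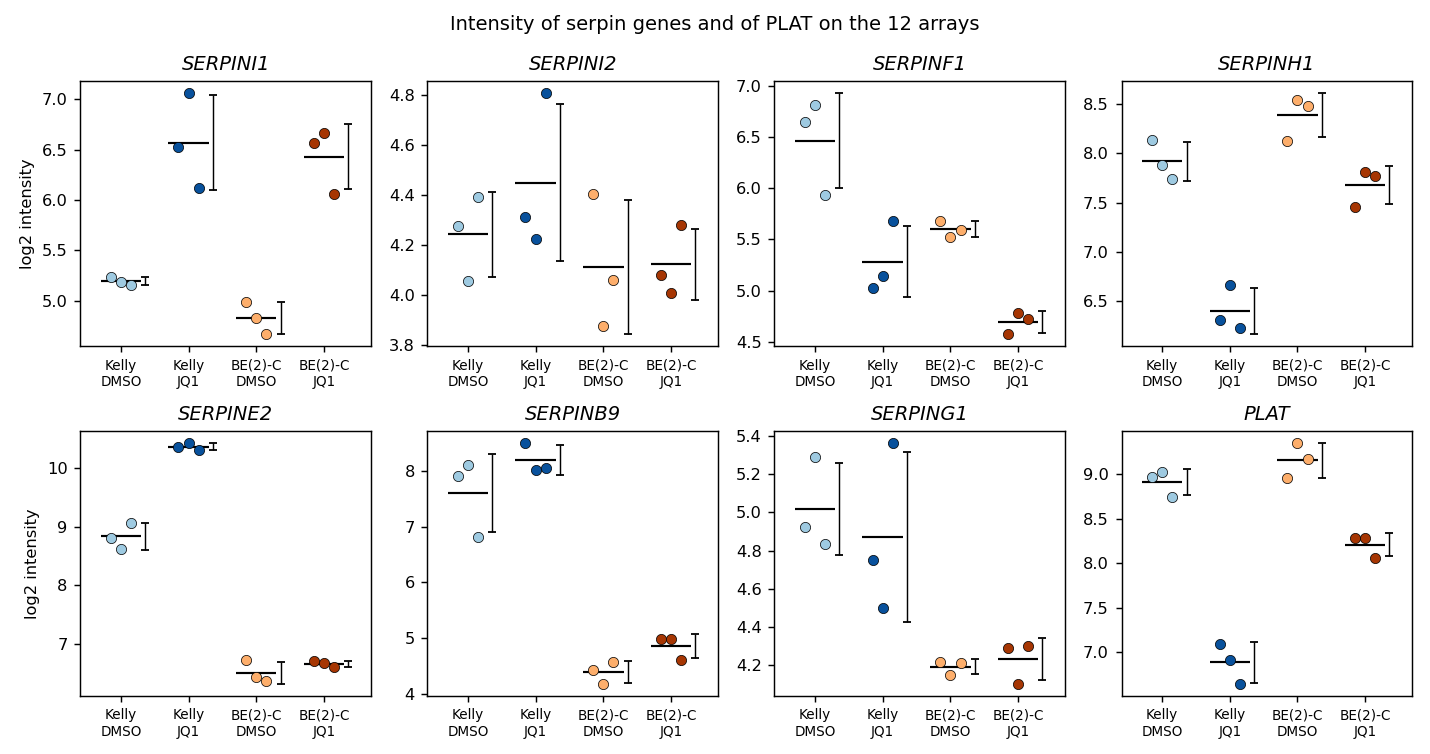
The log2 intensity of each array (vertical axis, scaled separately for each gene) is plotted for 7 serpin genes and PLAT in the 4 groups (horizontal axis), with the group mean as a line and the SD of 3 arrays as a bar. SERPINI1 is higher with JQ1 in both lines, SERPINF1, SERPINH1 and PLAT are lower, SERPINE2 is higher with JQ1 in Kelly, and SERPINB9 separates the lines.

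The hybridization control signal differed by 1.04 between the JQ1 and DMSO means in Kelly and by 0.21 in BE(2)-C. Within groups, the slope on this signal passed for 15 of the 33 serpin genes (45.5%) and for 9692 of all genes (53.5%). For the 4 genes called with JQ1 the slope did not pass: it was -0.06 for SERPINI1 (adjusted p = 0.534), 0.09 for SERPINE2 (0.111), -0.05 for SERPINF1 (0.617) and -0.08 for SERPINH1 (0.254). With the signal fitted as a covariate, SERPINI1 changed by 1.44 in Kelly and 1.61 in BE(2)-C, SERPINF1 by -1.14 and -0.90, SERPINH1 by -1.44 and -0.69, and SERPINE2 by 1.45 in Kelly. All of these passed.

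**Figure D4:**
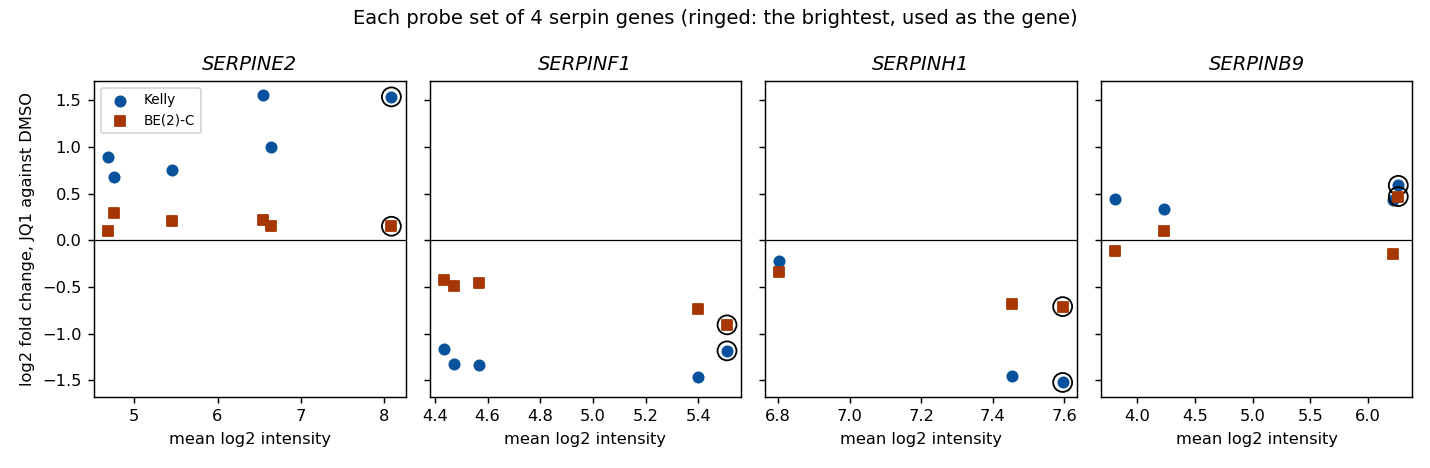
For each probe set of SERPINE2, SERPINF1, SERPINH1 and SERPINB9 the log2 fold change of JQ1 against DMSO (vertical axis) is plotted against its mean log2 intensity over 12 arrays (horizontal axis), in Kelly (blue circles) and BE(2)-C (brown squares), with a ring around the set used as the gene. All 6 sets of SERPINE2 lie above 0 and all sets of SERPINF1 and SERPINH1 below it, and the 4 sets of SERPINB9 lie on both sides in BE(2)-C.

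The other 29 serpin genes passed in neither line nor in the average. Their Kelly changes ran from -0.15 (SERPING1) to 0.74 (SERPINA3) with a median of 0.21, and 24 of the 29 were positive. The median of all genes in Kelly was 0.08, with 59.4% positive. In BE(2)-C their changes ran from -0.29 (SERPINA11) to 0.47 (SERPINB9) with a median of -0.04, and 10 were positive, against -0.01 and 48.4% for all genes. With the hybridization control signal as a covariate, 18 of the 29 were positive in Kelly, and their median was 0.03, equal to the median of all genes (0.03). With quantile normalization 17 were positive, with a median of 0.10 against 0.09. Without the 3 arrays of highest control signal, an alternative chosen after seeing the data, 27 were positive in Kelly (median 0.19, all genes 0.13) and 19 in BE(2)-C (0.07 and 0.06). The part of the control signal in these counts was not tested.

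Clade A held no gene that passed with JQ1. Among its plasma protease inhibitors, SERPINA3 (alpha-1-antichymotrypsin, an inhibitor of cathepsin G) gave 0.74 in Kelly (95% interval -0.08 to 1.57) and -0.08 in BE(2)-C (-0.91 to 0.74). SERPINA10, which inhibits factor Xa with protein Z, gave 0.65 (0.10 to 1.19) and -0.10 (-0.65 to 0.45). SERPINA5, the protein C inhibitor, gave 0.41 (0.02 to 0.79) and -0.03 (-0.41 to 0.36), and SERPINA1, the elastase inhibitor alpha-1-antitrypsin, -0.08 (-0.47 to 0.30) and 0.27 (-0.12 to 0.65). These intervals are not adjusted for the number of genes, and none of the 4 genes passed. The adipokine vaspin, SERPINA12, gave 0.66 in Kelly (0.16 to 1.16) and -0.07 in BE(2)-C (-0.57 to 0.43). The hormone carriers SERPINA6, for cortisol, and SERPINA7, for thyroxine, gave 0.02 and 0.08 in Kelly and -0.13 and 0.10 in BE(2)-C. SERPINA9, SERPINA11 and the pseudogene SERPINA13P gave 0.09, 0.07 and -0.02 in Kelly and -0.07, -0.29 and 0.10 in BE(2)-C.

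SERPINA4, the tissue kallikrein inhibitor kallistatin, was the clade A gene whose JQ1 and DMSO arrays did not overlap in either line. For Kelly the arrays read 5.42, 4.99 and 5.55 with DMSO and 5.79, 5.82 and 5.89 with JQ1. For BE(2)-C the arrays read 5.74, 5.35 and 5.35 with DMSO and 5.27, 5.13 and 5.33 with JQ1. The JQ1 arrays lay above DMSO in Kelly and below in BE(2)-C, where the nearest arrays almost touched (5.33 with JQ1 and 5.35 with DMSO). The changes were 0.51 (SE 0.18, adjusted p = 0.108) and -0.23 (SE 0.18, adjusted p = 0.74), and neither passed. Their difference was -0.75 (adjusted p = 0.291). Of all genes, 23.7% did not overlap in Kelly and 22.2% in BE(2)-C. The share apart in opposite directions in the 2 lines was not counted.

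Groups that did not overlap were counted for every member. In Kelly 9 of 33 did not overlap, 7 higher with JQ1 (SERPINA10, SERPINA12, SERPINA4, SERPINA5, SERPINB12, SERPINE2 and SERPINI1) and 2 lower, against 23.7% of all genes (12.1% higher and 11.6% lower). In BE(2)-C 6 did not overlap, 2 higher (SERPINB9 and SERPINI1) and 4 lower (SERPINA4, SERPINA6, SERPINF1 and SERPINH1), against 22.2% (11.5% and 10.7%). In both lines in the same direction there were 3 (7.52% of all genes), SERPINI1 higher (2.8% of all genes) and SERPINF1 and SERPINH1 lower (4.73%).

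No clade B gene passed with JQ1 either. This clade holds intracellular inhibitors, some of them known from squamous epithelium and blood cells. Of the measured markers of these cells, all but SFN lay below the median gene. Whether this bears on the clade B values was not tested. SERPINB9, the granzyme B inhibitor, gave 0.59 (95% interval -0.04 to 1.21, adjusted p = 0.248) in Kelly and 0.47 (-0.16 to 1.09, adjusted p = 0.579) in BE(2)-C. SERPINB5 (maspin) gave 0.40 and -0.09, SERPINB12 0.37 and 0.00, and SERPINB10 0.28 and 0.04. SERPINB3 and SERPINB4, the squamous cell carcinoma antigens, gave 0.36 and 0.01 in Kelly and -0.24 and -0.11 in BE(2)-C. A further 5 probe sets name both of these near-identical genes and gave -0.17 to 0.17 in Kelly and, in BE(2)-C, -0.07 to 0.13, so the reading of either gene is uncertain. SERPINB8, an inhibitor of furin, gave 0.05 and -0.12. SERPINB1, SERPINB7, SERPINB11, SERPINB13 and the pseudogene SERPINB9P1 ran from -0.01 to 0.25 in Kelly and, in BE(2)-C, from -0.10 to 0.04.

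Of the single-gene clades, SERPINC1 (antithrombin) gave 0.21 in Kelly and -0.05 in BE(2)-C and SERPIND1 (heparin cofactor II, a thrombin inhibitor) 0.24 and -0.01. SERPIND1 was 1 of the 3 members with signal above the median gene. It measured 7.88 ± 0.48 (SD, n = 3) and 8.12 ± 0.14 in Kelly without and with JQ1, and 7.56 ± 0.49 and 7.56 ± 0.40 in BE(2)-C. The groups overlapped in both lines. Its values moved with the hybridization control signal (slope 0.29, adjusted p = 0.00094), and its second probe set was dim (3.76).

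The lines were also compared with each other under the same treatment. Under DMSO 4 of the 33 serpin genes passed, all lower in BE(2)-C, against 15.1% of all genes (7.89% lower and 7.2% higher). With each gene read from its brightest probe set, SERPINB9 gave the largest difference under DMSO. It measured 7.91, 8.11 and 6.82 in Kelly with DMSO and 4.42, 4.18 and 4.57 in BE(2)-C with DMSO. With JQ1 it measured 8.51, 8.02 and 8.07 in Kelly and 4.98, 4.98 and 4.60 in BE(2)-C. Every Kelly array lay above every BE(2)-C array. The difference, BE(2)-C minus Kelly, was -3.22 (SE 0.29, adjusted p = 5.88e-06) under DMSO and -3.34 (SE 0.29, adjusted p = 4.34e-06) under JQ1. A second bright probe set gave -1.51 under DMSO and the 2 dim ones -0.26 and 0.02. The order depends on the probe set: under DMSO the mean over all sets gave -1.24 for SERPINB9 and -1.54 for SERPINE2, and without cross-matching sets they gave -1.51 and -2.18.

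SERPINE2 differed by -2.33 (SE 0.16, adjusted p = 4.8e-07) under DMSO and by -3.72 (SE 0.16, adjusted p = 6.68e-09) under JQ1, again lower in BE(2)-C. Its size varied with the probe set, from -2.33 to -0.24 under DMSO, where 4 of the 6 passed. The mean of the 6 gave -1.54 under DMSO (adjusted p = 2.49e-05) and -2.42 under JQ1 (6.25e-07). SERPINF1 differed by -0.87 (SE 0.23, adjusted p = 0.0209) under DMSO and by -0.59 (adjusted p = 0.0806) under JQ1. The DMSO call was lost in 6 of 18 alternatives, among them those without Kelly DMSO replicate 1 or 2 or BE(2)-C DMSO replicate 2 or 3 (adjusted p from 0.0598 to 0.0913). SERPINH1 differed by 0.47 (adjusted p = 0.124) under DMSO and was higher in BE(2)-C by 1.28 (SE 0.18, adjusted p = 0.000308) under JQ1. SERPINI1 differed by -0.36 (adjusted p = 0.418) under DMSO and -0.14 (adjusted p = 0.66) under JQ1.

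SERPING1, the C1 inhibitor of the complement and contact systems, measured 4.92, 5.29 and 4.84 in Kelly and 4.22, 4.15 and 4.21 in BE(2)-C with DMSO. With JQ1 it measured 4.75, 4.50 and 5.37 in Kelly and 4.29, 4.10 and 4.30 in BE(2)-C. Kelly was above BE(2)-C on every array, though all values were in the low range. The difference was -0.83 (SE 0.21, adjusted p = 0.0165) under DMSO and -0.64 (SE 0.21, adjusted p = 0.0426) under JQ1. The first was lost in 4 of 18 alternatives, among them those without Kelly DMSO replicate 2 (adjusted p = 0.0691) or BE(2)-C DMSO replicate 2 (0.0611). The second was lost in 12 of 18, with 8 of the 12 arrays left out in turn among them (0.0538 to 0.151), and it held without replicate 1 of BE(2)-C under DMSO, and in Kelly without replicate 2 under JQ1 or replicate 2 or 3 under DMSO.

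Under JQ1 7 serpin genes passed between the lines, against 23.3% of all genes, 6 lower in BE(2)-C (10.4% of all genes) and SERPINH1 higher (12.9%). Beside SERPINB9, SERPINE2 and SERPING1 these were 3 plasma inhibitors of clade A. SERPINA10 measured 5.74, 5.48 and 6.12 in Kelly and 5.08, 4.63 and 4.74 in BE(2)-C with JQ1, a difference of -0.96 (SE 0.25, adjusted p = 0.0153). SERPINA3 measured 5.01, 5.56 and 6.59 in Kelly and 4.54, 4.34 and 4.81 in BE(2)-C with JQ1, a difference of -1.16 (SE 0.38, adjusted p = 0.0434). The highest of these, 6.59, came from the array with the highest control signal, on which SERPINA3 had a slope of 0.36 (adjusted p = 0.00362). SERPINA4 differed by -0.59 (SE 0.18, adjusted p = 0.0295). With the control signal fitted, SERPINA3 gave -0.61 (adjusted p = 0.122), SERPINA4 -0.37 (adjusted p = 0.0546) and SERPING1 -0.62 (adjusted p = 0.0543). Without cross-matching sets SERPINA10 gave -0.54 (adjusted p = 0.118), and with its probe sets averaged SERPINA3 gave -0.58 (adjusted p = 0.0913). Left-out arrays ended the SERPINA10 call for Kelly JQ1 replicate 3 and BE(2)-C JQ1 replicate 2 (0.0664 and 0.0701) and the SERPINA4 call for each of the 6 JQ1 arrays (0.0509 to 0.119). The SERPINA3 call ended without any 1 BE(2)-C JQ1 array, either of replicates 2 and 3 of BE(2)-C under DMSO, and in Kelly replicate 1 under DMSO or either of replicates 2 and 3 under JQ1 (0.0508 to 0.18).

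Genes around the family were read from lists, whose counts stand against the shares of all genes given above: in Kelly 1.76% rose and 4.73% fell, and in BE(2)-C 2.18% rose and 2.51% fell. No list was tested as a set. Of 43 measured proteases that serpins inhibit, 1 rose and 3 fell in Kelly and 1 rose and 2 fell in BE(2)-C, with medians of 0.21 and -0.02. In Kelly these were PRSS3, a trypsin (-2.15, adjusted p = 0.000163), PLAT, coagulation factor F12 (-1.24, adjusted p = 0.00696) and neutrophil elastase, ELANE (0.90, adjusted p = 0.0271). In BE(2)-C they were F12 (-1.47, adjusted p = 0.00352), PLAT and cathepsin K, CTSK (0.88, adjusted p = 0.0204). The list holds targets of many different serpins, and PLAT is the one best known as a target of SERPINI1.

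Of 23 measured receptors and cofactors of serpins, none rose and 3 fell in Kelly and 2 rose and 3 fell in BE(2)-C, with medians of 0.03 and 0.02. LRP8, a lipoprotein receptor of neurons, fell in both lines (-0.72, adjusted p = 0.0184, and -0.69, adjusted p = 0.0289). The LRP8 call held in 16 of 21 alternatives in Kelly (adjusted p up to 0.0882) and in 13 of 21 in BE(2)-C (up to 0.285). SDC1, a heparan sulphate proteoglycan, also fell in both lines (-0.99, adjusted p = 0.0475, and -1.57, adjusted p = 0.00553). SORL1, a sorting receptor, changed in Kelly by -1.18 (adjusted p = 0.00601). VLDLR, a related lipoprotein receptor, rose in BE(2)-C by 1.05 (adjusted p = 0.00666), as did S100A10, a cell-surface partner in plasmin formation, by 1.58 (adjusted p = 0.000925).

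Of 43 measured genes on a list of other protease inhibitors, 1 fell in each line and none rose. Their medians were 0.27 in Kelly and 0.00 in BE(2)-C. The list also names AGT, a clade A serpin whose symbol does not begin with SERPIN and which is not among the 33 members. TIMP1, a metalloproteinase inhibitor, fell in Kelly (-1.43, adjusted p = 0.0054), and BIRC5, survivin, fell in BE(2)-C (-0.71, adjusted p = 0.0232). Of 17 measured partners of SERPINH1 in collagen folding, 1 rose and 1 fell in Kelly, with a median of -0.20, and none passed in BE(2)-C, with a median of 0.03. The prolyl hydroxylase subunit P4HA1 rose by 1.06 in Kelly (adjusted p = 0.0075), and the lysyl hydroxylase PLOD3 changed by -0.78 (adjusted p = 0.019). In BE(2)-C the largest values were those of FKBP14 (-0.74, adjusted p = 0.0709) and CRTAP (0.57, adjusted p = 0.384).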

How the data were processed

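RNA of 12 samples was read on the Affymetrix PrimeView array, in 4 groups of 3. The authors processed the arrays with RMA, per the submitters' processing notes, which name no version. What was deposited is linear intensity (array medians 61.4 to 67.3), whereas log2 values had been planned for, so log2 was taken here with no offset, filter or further normalization. Of 49395 probe sets, 44988 named 1 gene. A gene was read from its brightest set by mean over the 12 arrays. Of the serpin sets, 65 named 1 gene and 5 named both SERPINB3 and SERPINB4 and were not used as genes; 15 serpin genes had several sets. Symbols came from the platform annotation (99.9% matched to RefSeq genes).

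A model of 4 group means over all 12 arrays was fitted (R 4.3.3, limma 3.58.1, functions lmFit, contrasts.fit and eBayes), two-sided, with Benjamini-Hochberg adjustment over 18132 genes and a threshold of 0.05. The fit was tested on simulated data with noise drawn independently for each gene. The real arrays shared signal across genes (the control slope passed for 53.5% of all genes), and the simulation does not cover that. The median standard error of a JQ1 effect per line was 0.21, and the 3 arrays a group limit precision. The members, lists and comparisons were chosen with earlier results of these data known. Arrays are given for SERPINI1, SERPINI2 and members that passed any comparison or did not overlap in both lines; lists name up to 4 passing genes, or the 2 largest changes. PDCD10 and PLAT were given by array after their values were seen. Alternatives were the mean of a gene's sets, sets without cross-matching suffixes (_s_at, _x_at), quantile normalization, a filter on dim genes, a trended robust prior, 1 line alone, replicate number as a block, the hybridization control signal (9 probe sets) as a covariate and leaving out arrays. Same-numbered DMSO and JQ1 arrays deviated together in Kelly (correlations 0.434, 0.228 and 0.515), which meets the rule for pairing, and not in BE(2)-C (-0.0706, 0.527 and -0.744); the labels do not say what a number marks.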

Additional observations from a re-analysis of the deposited data

Results flagged for a closer look

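Both results concern a JQ1 effect that differed between the lines. For SERPINE2 the effect in BE(2)-C minus that in Kelly was -1.39 and passed the test of the difference (adjusted p = 0.0151). It was lost in 7 of 20 alternatives, among them the mean of its 6 probe sets (-0.88, adjusted p = 0.141). For SERPINA4 every JQ1 array lay above every DMSO array in Kelly and below in BE(2)-C, there by a narrow margin (5.33 against 5.35). The share of all genes apart in opposite directions was not counted. The difference of the SERPINA4 effects was -0.75 and did not pass in the limma fit (adjusted p = 0.291). The slope of SERPINA4 on the hybridization control signal was 0.14 (adjusted p = 0.0129), and its part in the difference was not tested.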

How the results depend on the processing

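The 23 serpin calls gave 438 alternative values: 364 kept the call and direction, 74 kept only the direction, and none reversed. SERPINI1, chosen for its rise, passed in all its alternatives (adjusted p up to 0.0208 in Kelly, 0.015 in BE(2)-C). Its estimates could not move with probe set choice (1 set) or without the other line's arrays. Without cross-matching probe sets 31 members were tested. SERPINH1, called in the main fit, and SERPINB4 are read only from such sets and were untested. The counts of serpin genes passing were 2 in Kelly (all genes 5.02%), 1 in BE(2)-C (3.66%) and 2 in the average (8.94%). They were 0 for the difference of the effects (0.407%), 2 between the lines under DMSO (12.9%) and 4 under JQ1 (21.1%). For the difference SERPINE2 then had an adjusted p of 0.63. Among genes at or above the median signal, where only 3 members were tested, the counts were 2 in Kelly, 1 in BE(2)-C, 2 in the average, 1 between the lines under DMSO and 2 under JQ1 (all such genes 11.5%, 8.46%, 20%, 24.3% and 37.2%). When probe sets were averaged they were 0 for the difference and 2 between the lines under DMSO (all genes 0.546% and 14.8%). With the control signal as a covariate 4 passed between the lines under JQ1 (all genes 25.3%). Leaving out 1 array at a time gave 4 to 5 in Kelly, 1 to 3 in BE(2)-C and 4 in the average. It gave 0 to 1 for the difference, 2 to 4 between the lines under DMSO and 3 to 9 under JQ1. The shares of all genes moved too, from 3.33% to 12% in Kelly, 1.78% to 6.67% in BE(2)-C and 7.5% to 13.6% in the average. They ran from 0.215% to 1.17% for the difference, 10.8% to 17.4% between the lines under DMSO and 14.1% to 29.3% under JQ1. The BE(2)-C count fell to 1 without Kelly DMSO replicate 1, BE(2)-C DMSO replicate 2 or 3, or any BE(2)-C JQ1 array. In these fits 1.78% to 3.45% of all genes passed in BE(2)-C, below the main fit's 4.69%. SERPINE2 lost the difference without Kelly DMSO replicate 1, Kelly JQ1 replicate 2 or any BE(2)-C JQ1 array (adjusted p 0.0529 to 0.0622). The count between the lines under DMSO fell to 2 without Kelly DMSO replicate 2 or BE(2)-C DMSO replicate 2 (all genes 13% and 10.8%). Under JQ1 it fell to 3 without Kelly JQ1 replicate 3 or BE(2)-C JQ1 replicate 2 (all genes 18.2% and 14.1%). It fell to 4 without BE(2)-C JQ1 replicate 1 or 3 (all genes 15.2% and 19.1%). With Kelly alone SERPINF1 had an adjusted p of 0.059. Among members not called, SERPINB9 passed in Kelly with the covariate (0.81, adjusted p = 0.0343) and in the average with it (0.66, 0.00894) or quantile normalization (0.67, 0.0355). SERPINA4 passed in Kelly without Kelly DMSO replicate 3 (0.63, adjusted p = 0.0468) or the 3 arrays of highest control signal (0.60, 0.0215). SERPINA12 passed in Kelly without BE(2)-C DMSO replicate 1 (0.66, adjusted p = 0.0381) and in the average without those 3 arrays (0.33, 0.0488). Between the lines under JQ1, SERPINA12, SERPINB5 and SERPINF1 each passed under some alternative. With the replicate block 4 passed in Kelly (all genes 8.4%) and 2 in BE(2)-C (all genes 4.37%). The block lost SERPINF1 in BE(2)-C (adjusted p = 0.0932), and no other call changed. In BE(2)-C 1 of 6 arrays correlated best with its own number, and in Kelly 4 of 6. The part of the control signal in these correlations was not tested, so they cannot show whether a number marks a shared culture. The block was not run between the lines, since numbers lie within a line. Over all genes the share of calls that were higher moved in Kelly from 27.2% to 41.4% with quantile normalization and 38.4% with the covariate, in the average from 36.4% to 46.4% and 46.6%, for the difference from 79.2% to 70.4% and 67.1%, and between the lines under JQ1 from 55.5% to 44.4% and 51.2%. With the covariate 2293 of all genes passed in Kelly and 2752 in BE(2)-C. Alternatives between the lines under JQ1, and those without the 3 arrays of highest control signal, were chosen after seeing the data; without those arrays 5 of 33 serpin genes passed in Kelly, 3 in BE(2)-C and 9 between the lines under JQ1, against 24.8%, 14.1% and 36.3% of all genes. The cause of these moves was not tested. Dim probe sets limit what an absent call says about 21 members.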
